A study of Mus musculus with 6 samples.

Results

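The semaphorins, plexins, neuropilins, Slits, Robos, Eph receptors and ephrins form the main families of guidance ligands and receptors, and their expression was compared between control and Hic2 conditional knockout mouse hearts. Members were chosen by gene symbol among the array rows that carry exactly 1 symbol, and for a gene with several rows the row with the highest mean over the 6 arrays was kept. This gave 52 of the 14860 named genes: 18 semaphorins, 8 plexins, 1 neuropilin, 2 Slits, 4 Robos, 9 EphA receptors, 3 EphB receptors, 4 ephrin-A ligands and 3 ephrin-B ligands. Another 8 family genes, Sema3g, Sema4c, Plxnb3, Nrp2, Slit3, Ephb2, Ephb6 and Efna3, had no row with a single symbol and are not analysed here. Hearts were taken from embryos at E13.5, in mid-gestation. Control embryos were Hic2 FL/FL, that is, both copies of Hic2 carried loxP sites, and they had no Cre. Knockout embryos were Mesp1 Cre/+; Hic2 FL/FL. Mesp1-Cre is active in early mesoderm, the source of heart muscle and endocardium, so cells from other origins, such as the cardiac neural crest, would keep Hic2. There were 3 arrays per genotype, each of a pool of 4 to 6 hearts, and no group carried Cre with intact Hic2, so Hic2 loss and the Cre allele cannot be told apart. The labels call the replicates biological but name no litter, so every p-value measures the spread between these pools.

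Guidance molecules steer growing axons and migrating cells by attraction or repulsion, and the same systems pattern blood vessels and the heart. Class 3 semaphorins are secreted and signal through complexes of a neuropilin with a plexin, whereas most other semaphorins are membrane proteins that bind plexins directly. Slits are secreted ligands of Robo receptors. Ephrins are held on the cell surface, ephrin-A by a lipid anchor and ephrin-B by a transmembrane segment, and they signal between touching cells through Eph receptor tyrosine kinases, with ephrin-B also signalling back into its own cell. In mouse heart development, semaphorin 3C and plexin D1 are known for outflow tract septation, EphA3 and ephrin-A1 for the endocardial cushions and valves, and ephrin-B2 with EphB4 for the division of arteries from veins.

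The deposited values are log2 signals from Affymetrix arrays, normalised by the authors with RMA, which corrects background and gives all arrays a shared signal distribution. Array medians lay between 7.41 and 7.48. The signal of different probe sets cannot be ranked as transcript amount, so levels are compared only within a gene. Of the guidance genes, 39 had a mean above the median signal of all rows (7.46) and 13 below it, where RMA compresses differences. Hic2 itself read 8.10, 8.26 and 8.14 in control and 8.07, 7.96 and 8.04 in knockout hearts, a difference of -0.14 ± 0.07 (SE) that missed the threshold (limma adjusted p = 0.314). Where its probes lie relative to the deleted part is not known here. The pools also differed in a Y-linked gene, Eif2s3y, which read 4.36 in control replicate 3 and between 8.51 and 9.64 on each other array. The part of this difference between pools in the results was not tested. The X-linked gene Efnb1 is also given without that array, and Plxna3 is X-linked too.

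Few guidance genes differed between the genotypes beyond the spread between pools, and most differences were small. At a limma adjusted p under 0.05, taken over all 14860 genes, 1 of the 52 was higher in the knockout and 0 were lower, where the background over all genes was 0.559%, made up of 0.336% higher and 0.222% lower. The gene was Sema3b. At an unadjusted p under 0.05, 13 guidance genes differed, 3 higher and 10 lower, or 5.77% and 19.2% of the 52. The background at that looser threshold was 10.7% higher and 6.80% lower, 17.5% in all. After centring each array on its median the background became 8.64% higher and 9.45% lower, with 3 guidance genes higher and 11 lower. The median log2 difference of the 52 genes was -0.04, against 0.00 over all genes, and 35 of 52 lay below 0, a share of 67.3% against 48.4% of all genes. Their median absolute difference was 0.09, the same to 2 decimals as over all genes. The knockout arrays lay all below the control arrays in 11 guidance genes, 21.2% against 10.4% of all genes, and all above them in 4, 7.69% against 14.2%, so that 28.8% of guidance genes and 24.6% of all genes had separate groups. Brighter genes give more calls in general: of the 39 guidance genes above the median signal, 9 (23.1%) were lower at an unadjusted p, 10 (25.6%) had all knockout arrays below the controls and 29 (74.4%) lay below 0, against 8.75%, 13.6% and 47.0% of all genes that bright. These shares describe the 52 genes, and no test of the group was made.

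**Figure D1:**
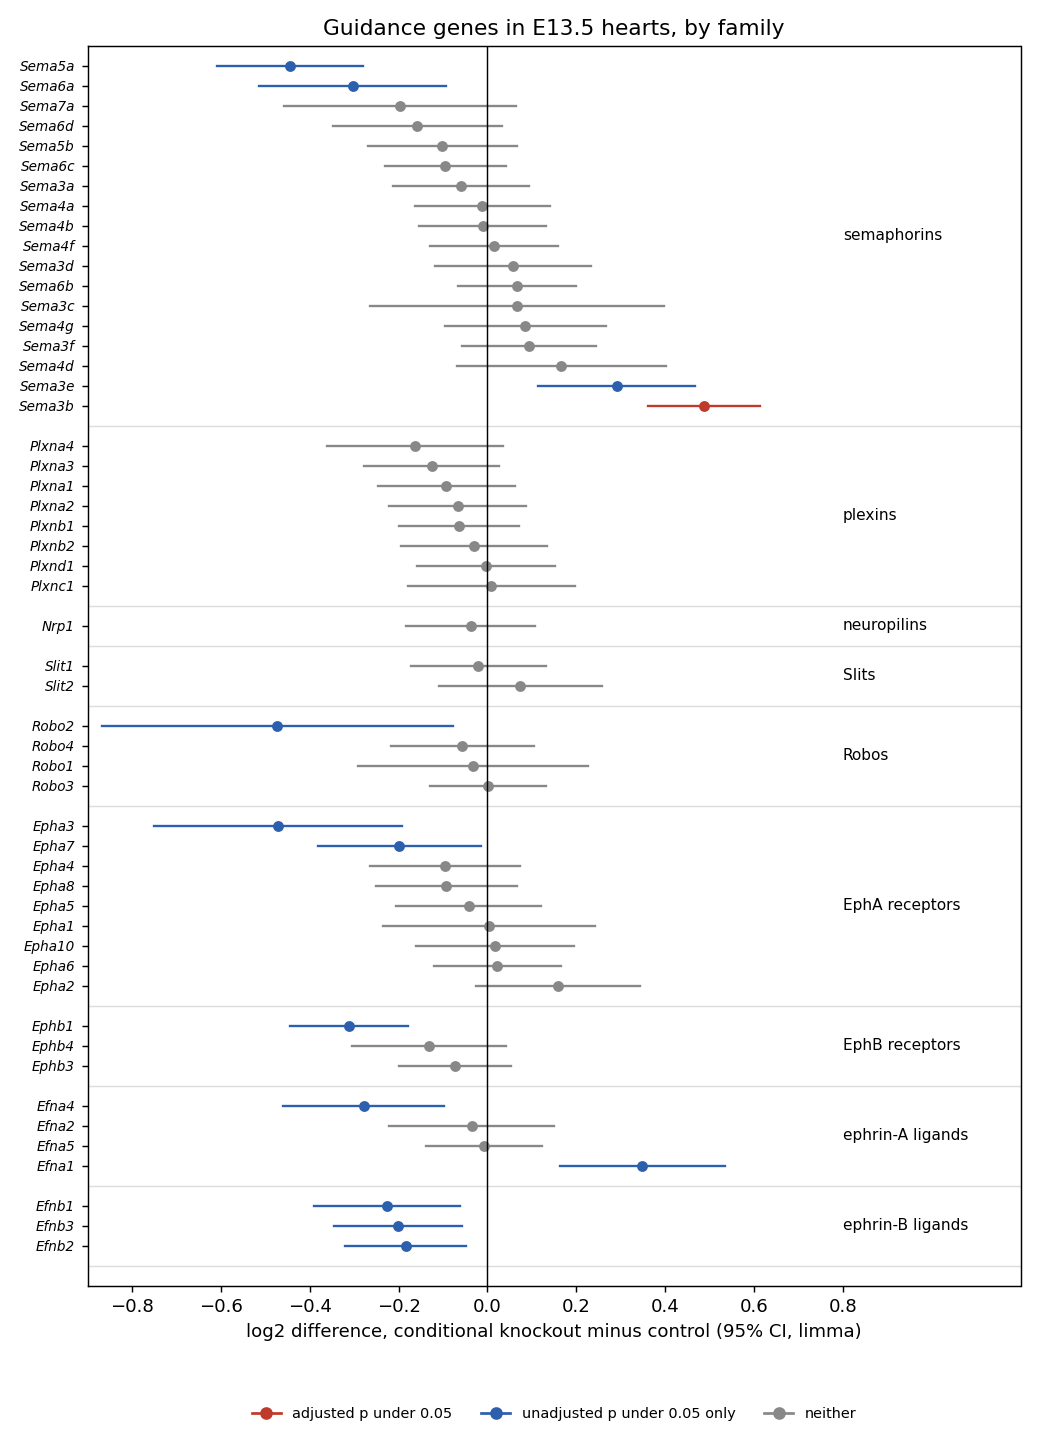
Log2 difference between conditional knockout and control hearts (x axis) for each of the 52 guidance genes (y axis), grouped by family and ordered by size within it. Points are limma estimates and lines their 95% confidence intervals; Sema3b, at 0.49, is the only gene with an adjusted p under 0.05, and all 3 ephrin-B ligands lie between -0.23 and -0.18.

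Among the secreted class 3 semaphorins, Sema3b rose in the knockout. Sema3b codes for a neuropilin ligand best known as a growth-restraining gene in human lung cancer cells. Its probe set (identifier 6998639, on chromosome 9) read 8.96, 9.00 and 9.02 in control hearts and 9.50, 9.45 and 9.49 in knockout hearts. Both groups were tight, and every knockout array lay above every control array by several times the spread within a group. The difference was 0.49 ± 0.05 on the log2 scale (SE; 95% confidence interval 0.36 to 0.61), or 1.40-fold, with a limma adjusted p of 0.0184. By unadjusted p it ranked 22 of 14860 genes. With any 1 of the 6 arrays left out the difference stayed between 0.47 and 0.50, while the adjusted p lay between 0.0623 and 0.0898. The call was lost each time, as it also was with all array rows tested (0.112) and with replicate number as a block (0.0758).

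Sema3e codes for a ligand that binds plexin D1 without a neuropilin and shapes growing vessels in mouse embryos. It read 5.91, 5.84 and 5.83 in control hearts and 6.26, 6.17 and 6.02 in knockout hearts. The groups did not overlap, at a signal below the median of the array. The difference was 0.29 ± 0.08 (SE), with an unadjusted limma p of 0.00555 and an adjusted p of 0.141, and it passed with array weights (adjusted p = 0.0375). These weights, here and below, were 4.19 for knockout replicate 2 and 0.56 to 1.78 for the other arrays. With them 733 of all genes passed, against 83 without. Sema3f, which lies near Sema3b on chromosome 9 with 3 protein-coding genes between them, had overlapping groups and a difference of 0.09. Of the 6 class 3 members 5 lay above 0, with a median of 0.08. Without knockout replicate 1 only 3 did, with a median of 0.02, and the median was 0.14 when control replicate 1 was left out. It was 0.13 when knockout replicate 2 was left out and 0.04 when arrays were weighted. Sema3b and Sema3e were the only class 3 members with an unadjusted p under 0.05. The others were Sema3a, which directs sympathetic innervation of the mouse heart, Sema3c and Sema3d, and with Sema3f they ranged from -0.06 to 0.09. Sema3c, required for outflow tract septation in the mouse, varied widely within each group, from 8.35 in control replicate 3 to 8.79 in control replicate 1 and from 8.49 to 8.90 in the knockout.

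Membrane-bound semaphorins of classes 5 and 6 leaned the other way. Sema5a, a transmembrane semaphorin with thrombospondin repeats, read 9.03, 9.18 and 9.07 in control hearts and 8.70, 8.69 and 8.56 in knockout hearts. Every knockout array lay well below every control array. The difference was -0.44 ± 0.07 (SE; 95% confidence interval -0.61 to -0.28), or 1.36-fold, and its limma adjusted p of 0.0517 fell just short of the threshold. It passed after median centring (adjusted p = 0.0450), quantile normalisation (0.0412), trended robust moderation (0.0315), array weighting (0.0176) and restriction to brighter genes (0.0135). It did not pass with all array rows tested (0.189), with replicate number as a block (0.114) or with the mean of a gene's rows (0.0518). Without 1 array its adjusted p lay between 0.0906 and 0.161.

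Sema6a, a ligand of plexins A2 and A4, read 9.32, 9.61 and 9.45 in control and 9.26, 9.15 and 9.05 in knockout hearts. The groups were separate, but control replicate 1 and knockout replicate 1 lay close together. The difference was -0.30 ± 0.09 (SE), with an unadjusted limma p of 0.0108 and an adjusted p of 0.170. Sema6d, which binds plexin A1 and acts in cardiac morphogenesis in the chick, read 10.80, 10.87 and 10.91 in control and 10.85, 10.69 and 10.57 in knockout hearts. Its groups overlapped through knockout replicate 1, and its difference of -0.16 ± 0.08 (SE) had an adjusted p of 0.360 and was -0.09 without knockout replicate 3. Of the 4 class 6 members 3 lay below 0, Sema6b being the exception at 0.07, and the class 5 member Sema5b stood at -0.10 with overlapping groups.

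Class 4 semaphorins, membrane proteins that act on class B plexins and on immune cells, showed no call. The 5 measured members, Sema4a, Sema4b, Sema4d, Sema4f and Sema4g, ranged from -0.01 to 0.17. Sema4b lies close to Mesp1 on chromosome 7, with 6 protein-coding genes between them, so in knockout embryos it neighbours the Cre allele. It read 9.42, 9.53 and 9.57 in control and 9.51, 9.50 and 9.49 in knockout hearts. The knockout values fell inside the control range, and the difference was -0.01 (95% confidence interval -0.15 to 0.13). Sema7a, the lipid-anchored member, had overlapping groups and a difference of -0.20 ± 0.11 (SE). Over all 18 semaphorins the median was 0.00, with 9 above and 9 below 0.

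**Figure D2:**
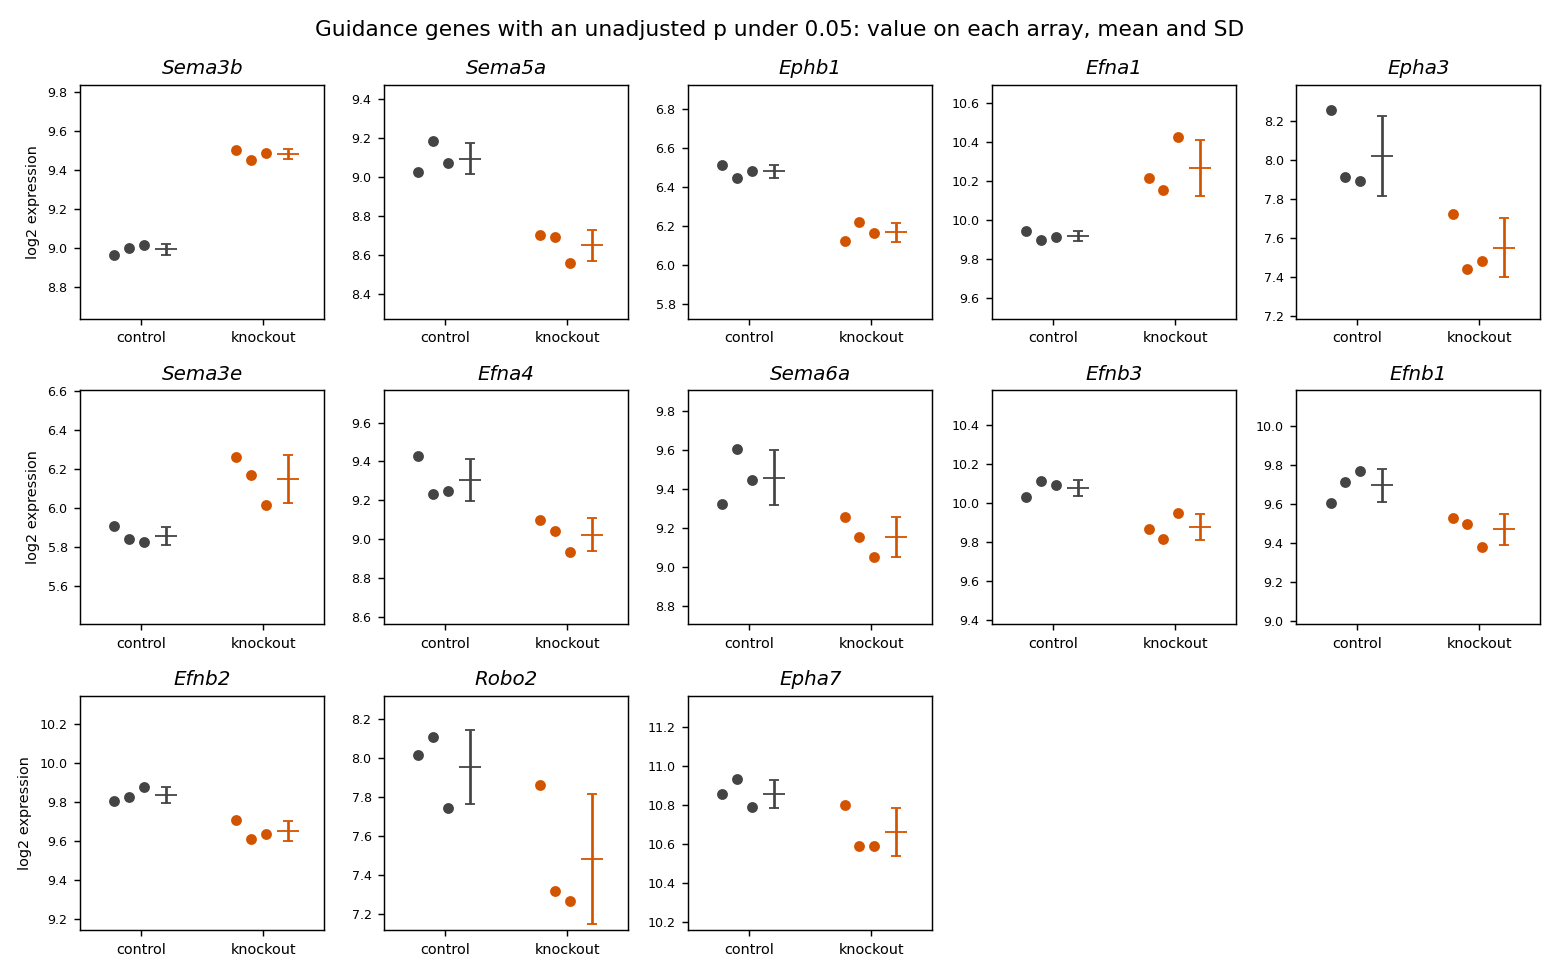
Log2 expression (y axis) on each of the 3 control and 3 knockout arrays (x axis, replicates 1 to 3 from left to right) for the 13 guidance genes with an unadjusted limma p under 0.05; bars beside the points are mean ± SD, and each panel spans 1.2 log2 units. The groups are apart in every panel except Robo2 and Epha7, where knockout replicate 1 reaches into the control range.

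The semaphorin receptors did not differ detectably. All 8 measured plexins, the signalling receptors of semaphorins, had an unadjusted limma p above 0.05, and 7 of 8 lay below 0, with a median of -0.07. Without knockout replicate 3, 5 of 8 did, with a median of -0.025, and without knockout replicate 1 all 8 did, with a median of -0.10. All 4 class A plexins, the usual partners of neuropilins, lay below 0, from -0.16 for Plxna4 to -0.07 for Plxna2, and they stayed below 0 under each scaling of the arrays. The X-linked Plxna3 read 8.03, 8.04 and 7.91 in control and 7.94, 7.85 and 7.82 in knockout hearts. Plxna4 read 9.71, 9.74 and 9.75 in control and 9.75, 9.53 and 9.44 in knockout hearts. Knockout replicate 1 equalled the controls and the other knockout arrays lay below them. The difference was -0.16 ± 0.08 (SE; 95% confidence interval -0.36 to 0.04), and it was -0.25 without knockout replicate 1 and -0.10 without knockout replicate 3. Plxnb2, a receptor of class 4 semaphorins, read 11.39, 11.47 and 11.48 against 11.52, 11.42 and 11.31, and its difference of -0.03 ± 0.07 (SE) had the opposite sign without knockout replicate 3 (0.02). Plxnd1, the endothelial receptor of semaphorin 3E, stood at 0.00, with every knockout value between 11.18 and 11.35. Nrp1, the co-receptor shared by class 3 semaphorins and vascular endothelial growth factor, read 11.37, 11.44 and 11.43 in control and 11.45, 11.37 and 11.30 in knockout hearts. The groups overlapped, and the 95% confidence interval of the difference, -0.04, ran from -0.18 to 0.11. With 1 array left out it lay between -0.0754 and -0.0027, without knockout replicates 1 and 3 respectively.

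In the Slit and Robo families Robo2 stood apart from the other members in size but not in certainty. Slit2, the secreted ligand, read 10.75, 10.86 and 10.61 in control and 10.90, 10.78 and 10.76 in knockout hearts. The groups overlapped and the difference was 0.07 ± 0.08 (SE), with 0.01 without control replicate 3, 0.03 without knockout replicate 1 and 0.13 without control replicate 2. Robo2, a Slit receptor that acts with Robo1 in development of the caval veins and pericardium in the mouse, read 8.02, 8.11 and 7.75 in control and 7.87, 7.32 and 7.27 in knockout hearts. Knockout replicate 1 lay within the control range and the other knockout arrays well below it. The difference was -0.47 ± 0.17 (SE), with an unadjusted limma p of 0.0250 and an adjusted p of 0.218. Without knockout replicate 1 it was -0.66 with an adjusted p of 0.0911, and it passed when arrays were weighted by quality (-0.61, adjusted p = 0.0416). The largest weight was that of knockout replicate 2, which read 7.32. Robo1, its direct neighbour on chromosome 16, read 10.17, 9.94 and 9.86 against 10.13, 9.80 and 9.95, a difference of -0.03 ± 0.11 (SE) with overlapping groups. That sign turned without control replicate 1 (0.06) and without knockout replicate 2 (0.05). Slit1, Robo3 and the endothelial receptor gene Robo4 ranged from -0.06 to 0.00.

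The ephrin-A genes Efna1 and Efna4 lie beside each other on chromosome 3, with 1 protein-coding gene, Efna3, between them. EFNA1 and the gene of its receptor EPHA2 have been reported as targets of HIC1, the closest relative of HIC2, in human cells. The core of the HIC binding site is known from HIC1 studies as GGCA. The 250 bases before each RefSeq start site (GRCm38.p6, all written 5′ to 3′ on the gene's own strand) are shown for these 3 genes, Efna1 having 2 start sites, with GGGCA and its reverse complement TGCCC in capitals.
Efna1, start site 1 (chr3:89280952-89281201, minus strand): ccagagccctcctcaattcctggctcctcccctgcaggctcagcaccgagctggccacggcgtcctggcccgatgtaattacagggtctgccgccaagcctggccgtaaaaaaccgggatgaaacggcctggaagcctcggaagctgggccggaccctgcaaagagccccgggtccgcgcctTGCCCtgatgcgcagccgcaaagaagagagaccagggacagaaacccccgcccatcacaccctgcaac
Efna1, start site 2 (chr3:89279646-89279895, minus strand): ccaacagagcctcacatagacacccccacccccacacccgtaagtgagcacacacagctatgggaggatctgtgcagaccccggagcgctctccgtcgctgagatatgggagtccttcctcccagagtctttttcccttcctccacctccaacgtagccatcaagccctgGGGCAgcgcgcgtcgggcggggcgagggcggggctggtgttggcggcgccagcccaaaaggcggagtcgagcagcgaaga
Efna4 (chr3:89338029-89338278, minus strand): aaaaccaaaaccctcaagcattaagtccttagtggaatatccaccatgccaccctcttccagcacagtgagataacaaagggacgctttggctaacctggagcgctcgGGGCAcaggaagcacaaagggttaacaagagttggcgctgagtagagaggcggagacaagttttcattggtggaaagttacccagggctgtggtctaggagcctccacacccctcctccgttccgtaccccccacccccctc
Epha2 (chr4:141300971-141301220, plus strand): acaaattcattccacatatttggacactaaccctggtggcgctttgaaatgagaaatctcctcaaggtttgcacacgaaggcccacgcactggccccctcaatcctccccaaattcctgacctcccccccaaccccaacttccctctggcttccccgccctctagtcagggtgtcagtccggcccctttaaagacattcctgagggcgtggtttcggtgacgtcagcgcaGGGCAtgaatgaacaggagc
Each of the 4 stretches holds this longer form, GGGCA or TGCCC, once. The shorter core GGCA, or its reverse complement TGCC, was not marked and also occurs elsewhere, as in Efna1 start site 1 and Efna4. Over the whole RefSeq windows, which run from 250 bases before to 50 after a start, 31 of 59 windows of guidance genes hold the motif on either strand, 52.5%, against 53.5% of 32851 windows of all genes, and 45 of the 52 guidance genes had a window. A match is a description of these letters and not a binding site.

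Efna1 and Efna4 stood on opposite sides of 0. Efna1, which codes for a ligand of several EphA receptors that is induced in endothelium by inflammatory signals, read 9.95, 9.90 and 9.91 in control and 10.22, 10.16 and 10.43 in knockout hearts. All knockout arrays lay above the tightly grouped controls. The difference was 0.35 ± 0.08 (SE), or 1.27-fold, with an unadjusted limma p of 0.00282 and an adjusted p of 0.115, and it passed only among brighter genes (adjusted p = 0.0422). Efna4 read 9.43, 9.23 and 9.25 in control and 9.10, 9.04 and 8.93 in knockout hearts. All knockout arrays lay below all controls, and the difference was -0.28 ± 0.08 (SE), with an unadjusted p of 0.00797 and an adjusted p of 0.154. With array weights it passed (-0.31, adjusted p = 0.0414). Efna2 and Efna5, the remaining ephrin-A ligands, stood at -0.04 and -0.01 with overlapping groups.

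Of the EphA receptors, Epha3 had the largest difference. Epha3, which acts in formation of the atrioventricular cushions in the mouse, read 8.26, 7.92 and 7.89 in control and 7.72, 7.45 and 7.48 in knockout hearts. The groups were separate, although control replicate 1 lay well above the other controls. The difference was -0.47 ± 0.12 (SE), or 1.39-fold, with an unadjusted limma p of 0.00486 and an adjusted p of 0.134. It was -0.35 without control replicate 1 and -0.56 without knockout replicate 1, and it passed with array weights (-0.63, adjusted p = 0.0247) and among brighter genes (adjusted p = 0.0499).

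Epha7, a receptor best known from axon mapping, read 10.85, 10.93 and 10.79 in control and 10.80, 10.59 and 10.59 in knockout hearts. Knockout replicate 1 fell within the control range, and the difference of -0.20 ± 0.08 (SE) had an unadjusted limma p of 0.0384 and an adjusted p of 0.255. Epha2 read 8.53, 8.55 and 8.54 in control and 8.86, 8.66 and 8.59 in knockout hearts. The knockout arrays lay above the controls, but they spread more widely, with an SD of 0.14 against 0.01, and the difference of 0.16 ± 0.08 (SE) had an adjusted p of 0.347 and was 0.08 without knockout replicate 1. A second, dimmer Epha2 probe set (identifier 6918159) differed by 0.17 with overlapping groups. The other 6 EphA receptors, Epha1, Epha4, Epha5, Epha6, Epha8 and Epha10, ranged from -0.10 to 0.02 with overlapping groups, and all but Epha4 gave signals below the array median.

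The 3 ephrin-B ligands lay lower in the knockout together, each by a small amount. Efnb1, on the X chromosome, read 9.61, 9.71 and 9.77 in control and 9.53, 9.50 and 9.38 in knockout hearts. Efnb2, the arterial ligand, read 9.80, 9.82 and 9.88 against 9.71, 9.61 and 9.64. Efnb3, known as a midline barrier to axons in the mouse spinal cord, read 10.03, 10.11 and 10.09 against 9.87, 9.82 and 9.95. In none of these 3 genes did a knockout array reach the lowest control array. The same held for 13.6% of all genes above the median signal. The differences were -0.23 ± 0.07, -0.18 ± 0.06 and -0.20 ± 0.06 (SE), or between 1.14-fold and 1.17-fold, with unadjusted limma p-values of 0.0137, 0.0146 and 0.0123 and adjusted p-values of 0.180, 0.184 and 0.176, so none passed. Their median of -0.20 lay between -0.225 and -0.170 over the alternatives, and Efnb1 stood at -0.19 without control replicate 3, the array with low Eif2s3y.

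The EphB receptors, which bind ephrin-B, also lay below the controls in each of the 3 measured genes. Ephb1 read 6.52, 6.45 and 6.48 in control and 6.12, 6.22 and 6.16 in knockout hearts. The groups were far apart relative to their spread, at a signal below the array median. The difference was -0.31 ± 0.06 (SE; 95% confidence interval -0.45 to -0.18), with an unadjusted limma p of 0.000772 and an adjusted p of 0.0712, and it passed with array weights (adjusted p = 0.0239). Ephb4, the venous receptor of ephrin-B2, read 9.93, 10.00 and 9.96 against 9.92, 9.89 and 9.69. Its groups were narrowly separate, and the difference of -0.13 ± 0.07 (SE), with an adjusted p of 0.402, shrank to -0.06 without knockout replicate 3. Ephb3 stood at -0.07, with separate groups and an adjusted p of 0.527. Of all genes, 10.4% had every knockout array below every control array. The share was 13.6% above the median signal, where Ephb3 and Ephb4 lay, and 5.27% below it, where Ephb1 lay.

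**Figure D3:**
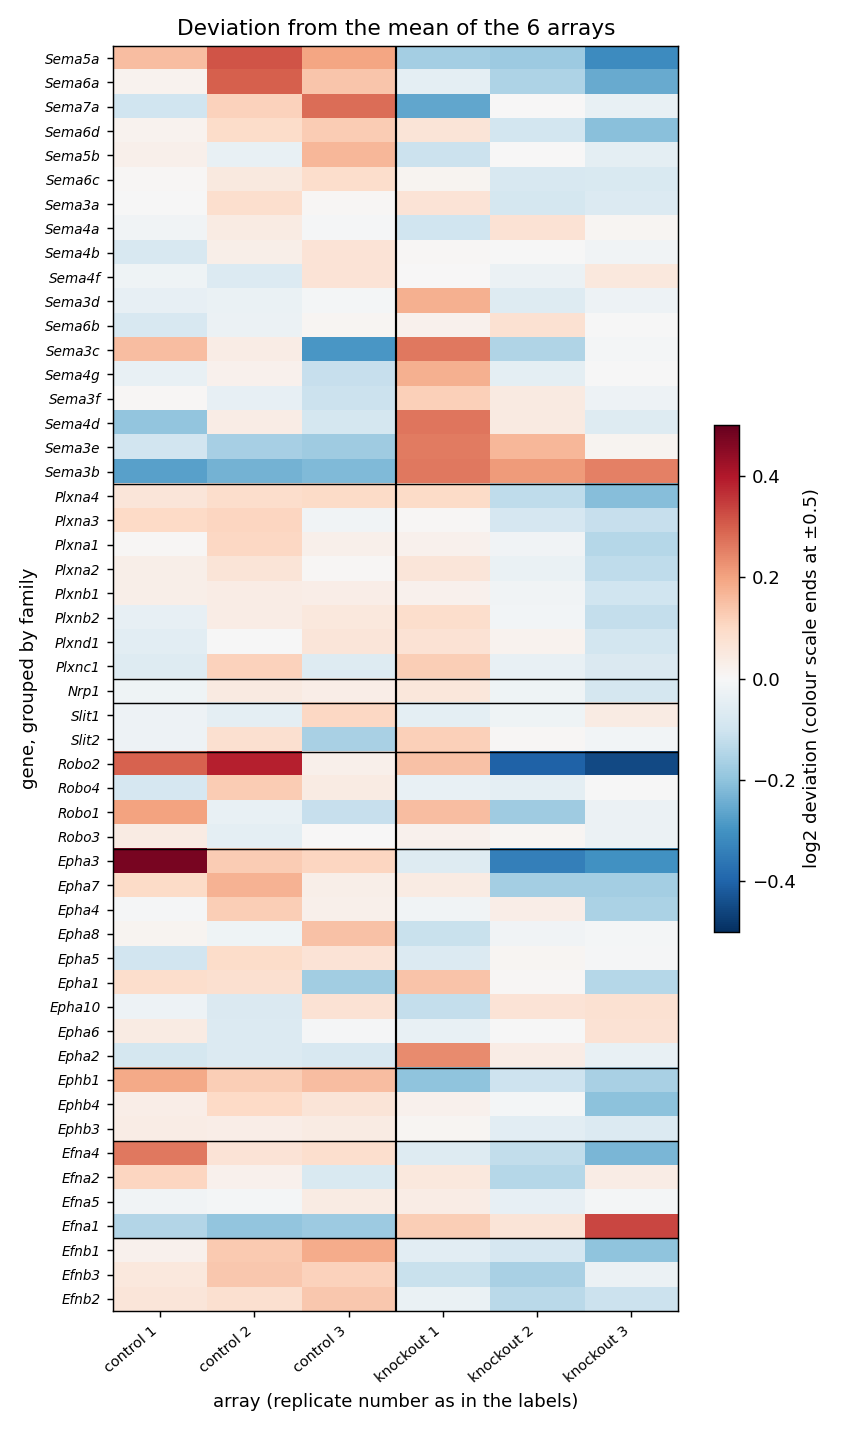
Deviation of each array (columns, 3 control then 3 knockout) from the gene's mean over the 6 arrays, in log2 units on a colour scale that ends at ±0.5, for the 52 guidance genes (rows, grouped by family with lines between families). Sema3b and Efna1 are low in all controls and high in all knockout arrays, the 3 ephrin-B rows run the other way, and knockout replicate 1 is the highest knockout array in 37 rows.

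Some arrays were often the highest or lowest of their group among guidance genes. Knockout replicate 1 gave the highest of the 3 knockout values in 37 of the 52 guidance genes, 71.2%, against 38.9% of all genes, and knockout replicate 3 gave the lowest in 27, 51.9% against 34.1%. Control replicate 1 gave the lowest control value in 28, 53.8% against 24.9%. These patterns were noticed after the values were seen. Without knockout replicate 1 the median of the 52 genes was -0.07, and 12 were lower and 3 higher at an unadjusted limma p under 0.05, where the shares of all genes were 8.60% and 11.3%. Without knockout replicate 2, 6 were lower and 3 higher, and the shares of all genes were 4.43% and 8.86%. With any 1 array left out, 0 guidance genes passed the adjusted threshold.

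Partners outside these families, from 4 lists of further ligands, receptors and effectors, also gave no call. Of 92 listed genes 81 were measured, 0 passed the limma adjusted threshold, and 5 were higher and 9 lower at an unadjusted p under 0.05, or 6.17% and 11.1%, against 10.7% and 6.80% of all genes. Their median was -0.04. Among 21 other guidance ligands and receptors (median -0.06), Flrt2, a membrane ligand of Unc5 receptors, had a difference of -0.38 ± 0.08 (SE, adjusted p = 0.0867) and netrin-1, Ntn1, of 0.22 ± 0.06 (adjusted p = 0.163). Among 27 semaphorin co-receptors and effectors (median -0.04), Cd72, a B cell receptor of semaphorin 4D, stood at 0.36 ± 0.07 (SE) and the collapsin response mediator Crmp1 at -0.25 ± 0.06. Among 12 Slit and Robo effectors (median -0.02), the heparan sulphate proteoglycan Gpc1 stood at -0.21 ± 0.07 (SE) and the actin regulator Vasp at 0.14 ± 0.06. Among 21 Eph and ephrin effectors (median -0.04), the Rac regulators Chn1 and Tiam1 stood at -0.24 ± 0.08 and 0.20 ± 0.09 (SE).

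Markers of the cell types in a heart moved in the same arrays. Over all genes, 0.336% were higher and 0.222% lower past the limma adjusted threshold. At an unadjusted p under 0.05 the shares were 10.7% and 6.80%. In bulk hearts, fewer cells of a type and less RNA per cell cannot be told apart. All 10 measured macrophage markers lay higher in the knockout, with mean levels of 8.29 to 8.47 on control and 8.69 to 8.79 on knockout arrays, and 2 of them, C1qc and Fcgr3, passed. Of 10 epicardial markers 8 lay higher and 2 lower, with mean levels of 9.96 to 10.10 against 10.23 to 10.40. Aldh1a1, Msln and Upk1b rose past the adjusted threshold. At an unadjusted limma p under 0.05, 7 epicardial markers were higher and 1 was lower. All 10 erythroid markers lay lower, with mean levels of 8.97 to 9.15 against 8.06 to 8.43, and 6 fell, with log2 differences of -1.33 for Trim10, -1.32 for Slc4a1, -1.13 for Epb42, -1.06 for Kel, -0.90 for Alas2 and -0.73 for Rhd. Mean levels of the 12 endothelial markers, all above the array median, were 10.73 to 10.76 in control and 10.79 to 10.93 in knockout hearts. Of these 12 markers 9 lay higher and 3 lower. None passed the limma adjusted threshold, and 3 were higher at an unadjusted p under 0.05, Icam2 (0.45) and Emcn (0.35) leading. Of all genes above the median signal, 14.2% were higher at that unadjusted p. Smooth muscle and pericyte markers (10 measured, 9.79 to 9.83 against 9.65 to 9.78) held 1 call, Kcnj8, which fell by 0.53. In all, 3 of them lay higher and 7 lower. For the 10 fibroblast and cushion markers the levels were 10.17 to 10.32 against 10.12 to 10.30. Here 3 lay higher and 7 lower, with Pdgfra (-0.35) and Col3a1 (-0.24) lowest in p and not past the threshold. For 7 cardiomyocyte markers, all bright, the levels were 12.80 to 12.85 against 12.72 to 12.77. Here 2 lay higher and 5 lower, with Nkx2-5 (-0.37) and Ryr2 (-0.15) lowest in p and not past the threshold. All 8 measured neuron, neural crest and Schwann markers gave signals below the array median (6.77 to 6.82 against 6.77 to 6.83). Here 5 lay higher and 3 lower, with Elavl4 (0.17) and Dbh (0.13) lowest in p. The part of these cell type differences in the guidance gene values was not tested.

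**Figure D4:**
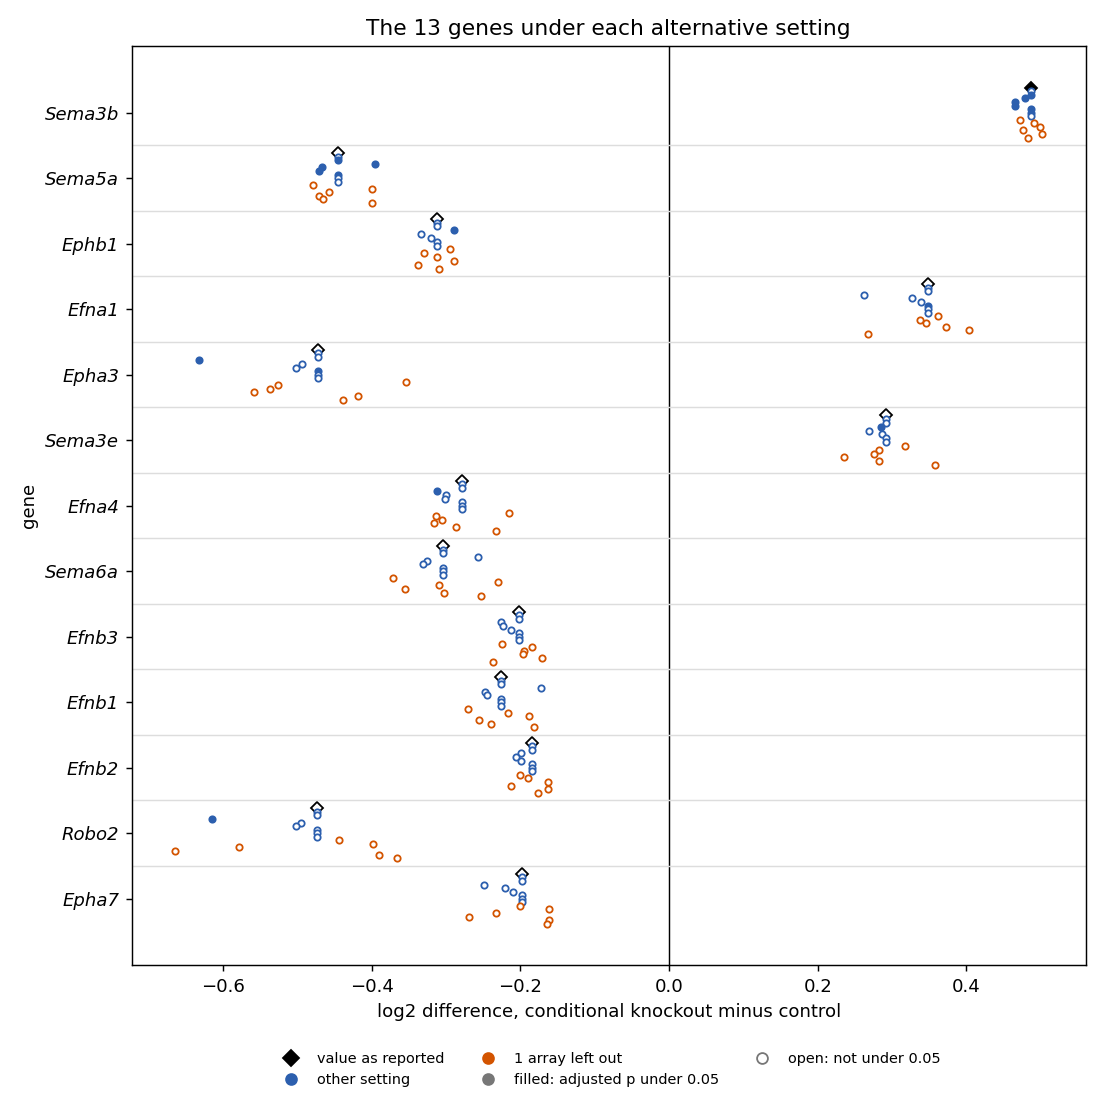
Log2 difference between conditional knockout and control hearts (x axis) for the 13 guidance genes with an unadjusted p under 0.05 (y axis), as reported (diamonds), under other settings (blue) and with 1 array left out (orange); filled symbols have an adjusted limma p under 0.05. Every symbol of a gene lies on 1 side of 0, and no symbol with an array left out is filled.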

How the data were processed

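The deposited files hold log2 signals from RMA, run in Expression Console according to the submitters' processing notes. The sources used here do not state its version, the annotation release or the genome build. Of 23332 rows, 14996 carried 1 gene symbol in the platform annotation, 1019 several and 7317 none. Of the 14996, 14941 gene identifiers were matched to RefSeq genes (GRCm38.p6). The brightest row per gene left 14860 genes, with no filter on dim rows, and 1 guidance gene, Epha2, had a choice of rows. Pairs of arrays shared 2 to 10 identical values, so none was a copy.

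Knockout minus control was fitted with limma 3.58.1 (lmFit, eBayes) in R 4.3.3 on all genes, two-sided, with Benjamini-Hochberg adjustment over all 14860 and a threshold of 0.05. The test had 7.46 degrees of freedom, and 3 arrays per group limit its precision. Errors are SE for differences and SD (n = 3) for levels.

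Described one by one are genes with an adjusted or unadjusted p under 0.05, the brightest and most different of each family, Efna1, Epha2 and any member near Mesp1, and for other lists the genes past the threshold or up to 2 with the smallest p. Members outside this rule, and their values, were singled out after the data were seen. Members and lists were chosen with earlier results of these data known. Alternatives were a replicate block, quality weights per array, trended robust moderation, quantile normalisation, centring on the median, brighter genes only, the mean of a gene's rows, all rows tested, and each array left out.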

Additional observations from a re-analysis of the deposited data

How the results depend on the processing

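All 13 guidance genes with an unadjusted p under 0.05 kept their direction in each of the alternatives that tested them. They were chosen by p in the same arrays that the alternatives reuse, so a kept sign is no independent support. Of all 52, 35 kept 1 sign throughout and 17 turned in at least 1 alternative, none of these with a reported difference over 0.0668 in size. Among the genes described one by one, signs turned in Sema4b (0.0238 with array weights, -0.0540 to 0.0211 with 1 array left out), Robo1 (-0.119 to 0.0585 with 1 array left out) and Plxnb2 (-0.0818 to 0.0203). The count of all genes past the limma threshold, 83, was 38 with the replicate block, 203 with trended robust moderation, 733 with array weights, 399 among brighter genes, 0 with all rows tested (2935 at an unadjusted p under 0.05) and 3 to 28 with 1 array left out. The count of guidance genes, 1, was 0 with the replicate block and with all rows tested, where 14 and 12 had an unadjusted p under 0.05, and 0 in each of the 6 fits with 1 array left out. The adjusted p of Sema3b was 0.0758 with the replicate block. Deviations from group means correlated at -0.04, 0.02 and 0.13 between same-numbered replicates and at -0.23 to 0.22 between others. The values of same-numbered replicates thus lay within the range of the others. The labels do not say whether the numbers pair the samples, and 3 arrays per group cannot decide it. The count of guidance genes was 2 with trended robust moderation, median centring and quantile normalisation, 4 among brighter genes and 7 with array weights. Array weights gave knockout replicate 2 a weight of 4.19 and the others 0.56 to 1.78. At an unadjusted p, 5 guidance genes were higher and 13 lower with array weights, when 1934 and 1918 of all 14860 genes were. With 1 array left out 3 to 4 guidance genes were higher and 6 to 12 lower. The shares of all genes were then 6.99% to 11.3% higher and 4.43% to 8.60% lower. The spread between arrays was taken as the SD within groups of a family's median signal. Medians moved beyond it for EphB receptors (-0.0825 with array weights, -0.102 among brighter genes, -0.174 to -0.0609 with 1 array left out) and ephrin-A ligands (-0.0909 with array weights). So did those of Slits (0.0740 among brighter genes) and EphA receptors (-0.147 among brighter genes), where fewer members were tested. That spread was 0.0567 for ephrin-A ligands and 0.140 for Robos. Within it, the ephrin-A median turned from -0.0220 to 0.0189 without knockout replicate 2, and the Robo median went from -0.0448 to -0.12 with array weights. With 3 arrays per group and no detection calls, small differences in dim probe sets could not be resolved.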
